A study of Mus musculus with 12 samples.

Results

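Integrin subunits and the adaptors of focal adhesions were examined in oligodendrocytes treated with siEgr2. The members were all genes of the count table named as an integrin α subunit (Itga with a number or 1 of the letters d, e, l, m, v and x) or β subunit (Itgb1 to Itgb8), together with a fixed list of adaptor symbols. They came to 44 of 56860 named genes, of which 18 encode α subunits, 8 encode β subunits and 18 encode adaptors.

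Integrins are receptors made of an α and a β subunit that bind laminins, collagens, fibronectin and other proteins of the extracellular matrix, and the α subunit largely sets which ligand is bound. Talins and kindlins bind the β tail and switch the receptor on, and further adaptors join it to actin and to signalling proteins such as FAK and ILK. In the oligodendrocyte lineage, the laminin receptor α6β1 is known for its part in survival and myelination, and αv integrins for their part in precursor migration and growth.

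The libraries came from primary oligodendrocytes of C57BL/6J mice. Per the methods, O4-positive cells were isolated with magnetic beads from newborn cortex, grown with PDGF-AA and differentiated in culture, while the labels name the medial prefrontal cortex. In the siEgr2 group (6 libraries) the cells received a reagent against the transcription factor Egr2 for 48 h, named in the sources both as siRNA and as an interference plasmid, and in the siNC group (6 libraries) a scrambled control. RNA was sequenced from whole cultures. The labels do not say that replicates were separate cultures, so p-values measure only the spread between these samples, which may be technical.

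Total counts per library ranged from 28682946 to 39383014 in siNC and from 8034251 to 16683677 in siEgr2, so the siEgr2 values carry the larger counting error. The 18S ribosomal RNA gene Rn18s-rs5 took 0.142% to 1.05% of the counts in siNC and 10.5% to 16.5% in siEgr2. Neither measure overlapped between the groups (exact permutation p = 0.00216 for each over 924 assignments, two-sided, the smallest that this design can give). Depth and ribosomal RNA share therefore cannot be told apart from the treatment in any comparison of these libraries.

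Egr2, the targeted gene, lay on chromosome 10 (67535475 to 67542188, GRCm38) and was measured first. It held 3.89 to 7.06 counts per 1000000 on the TMM scale (CPM) in siNC, with a median of 5.19, and 2.22 to 4.86 CPM in siEgr2, with a median of 3.93. The groups overlapped. The log2 fold change was -0.51 (SE 0.21), and it did not pass the test (adjusted p = 0.0981, edgeR). The libraries labelled siEgr2 thus had lower mean Egr2 (3.77 ± 1.01 CPM, SD, n = 6) than those labelled siNC (5.35 ± 1.27, n = 6), by less than the adjusted threshold requires, and all directions given here are between the labelled groups.

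Markers of the oligodendrocyte lineage were abundant in every library. Newly formed oligodendrocyte markers (10 genes, led by Bcas1) summed to 4095 to 4635 CPM in siNC and 4272 to 5390 CPM in siEgr2. No gene of that list was called, which takes an adjusted p below 0.05 with a log2 fold change beyond 0.5 in either direction. Of 10 precursor markers, Pdgfra and Cspg4 were called higher, each by 0.56 on the log2 scale, where 2.63% of all genes tested were. With no fold change required, 8 of the 10 passed the adjusted p as higher (8.57% of all genes tested). The list, led by Olig1, summed to 5302 to 5666 CPM in siNC and 6617 to 6729 in siEgr2, so this sum separated the groups. Markers of myelinating oligodendrocytes are not given here, so these lists do not cover the whole lineage. In bulk RNA, fewer cells of a type and less RNA per cell cannot be told apart.

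Markers of other cell types were present as well. Astrocyte markers (12 genes, most abundant Gfap) summed to 8300 to 9001 CPM in siNC and 5329 to 6016 CPM in siEgr2. Of these, 5 were called lower, where 5.08% of all genes tested were. Among the 5 were the glutamate transporter Slc1a3 (log2 fold change -0.85), the water channel Aqp4 (-0.80) and Aldh1l1 (-0.74). Pericyte and smooth muscle markers (12 genes, 8 tested) summed to 403 to 450 CPM in siNC and 269 to 336 CPM in siEgr2, with 7 called lower. They were led by Cnn1 (log2 fold change -1.92), Notch3 (-0.93) and Vtn (-0.79), and the most abundant was Tagln. Both sums separated the groups. Integrins are expressed by these cells too, and the part of their RNA in the changes of integrin genes was not tested.

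Markers of further cell types were examined too. The microglia marker Aif1 had no count in any library. Platelet markers (8 genes, none tested) held 4 to 14 counts in siNC and 3 to 105 in siEgr2, led by Gp1bb, which was above 1 CPM only in siEgr2 replicates 2, 4 and 6 and shares 91.1% of its exon bases with Sept5 on the same strand, with Ppbp, Gp9, Gp6 and Treml1 at 0. Endothelial markers (12 genes, 6 tested, most abundant Kdr) summed to 66.2 to 79.3 and 54.0 to 65.3 CPM, with Flt1 (log2 fold change -1.35) and Slco1a4 (-0.93) called lower and Cldn5 at 0. The level of fibroblast markers (12 genes, most abundant Col1a1) was 824 to 1395 and 864 to 1055 CPM with no call. Neuron markers (12 genes, most abundant Map2) gave 476 to 737 and 488 to 737 CPM with Stmn2 called lower (-0.91), and ependymal markers (8 genes, most abundant Foxj1) gave 69.6 to 90.8 and 50.7 to 66.7 CPM with Tekt1 called lower (-0.91). The endothelial and the ependymal sums were also lower in every siEgr2 library than in any siNC library. Within the endothelial list, Slco1a4 held 19.5 to 28.7 CPM in siNC and 10.5 to 16.2 CPM in siEgr2. Kdr (22.6 to 29.8 and 24.9 to 31.4 CPM) and Vwf (12.1 to 15.4 and 14.2 to 16.9 CPM) were not lower. Pecam1, Tek, Tie1 and Esam stayed under 1 CPM in every library, so this sum does not stand for the endothelial markers as a set.

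Of the 44 members, 36 had enough counts to be tested. Of these, 5 were called lower in siEgr2 (Itga2, Itga3, Itga5, Itga6 and Itgb5), where 5.08% of the 16600 genes tested were called lower, and 1 was called higher (Lims2), where 2.63% were. With no fold change required, 16 passed the adjusted p as lower (11.3% of all genes tested) and 3 as higher (8.57%). In 12 members every siEgr2 library lay below every siNC library (7.00% of all genes tested), and in 2 every siEgr2 library lay above (4.15%). The median log2 fold change was -0.48 over the 19 integrin subunits tested, -0.14 over the 17 adaptors tested and 0.00 over all genes tested. With TMM and this threshold, the called falls were all in receptor subunits. With no fold change required, 8 integrin subunits and 8 adaptors passed as lower. Among the adaptors, Parva (-0.64), Tln2 (-0.58) and Vcl (-0.54) were called lower with library size alone. Parva was also called lower with no filter on low counts. The difference between subunits and adaptors was not tested. The log2 fold changes by role show the adaptors within 0.5 of 0 apart from Lims2 and the scarce Fermt3.

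**Figure D1:**
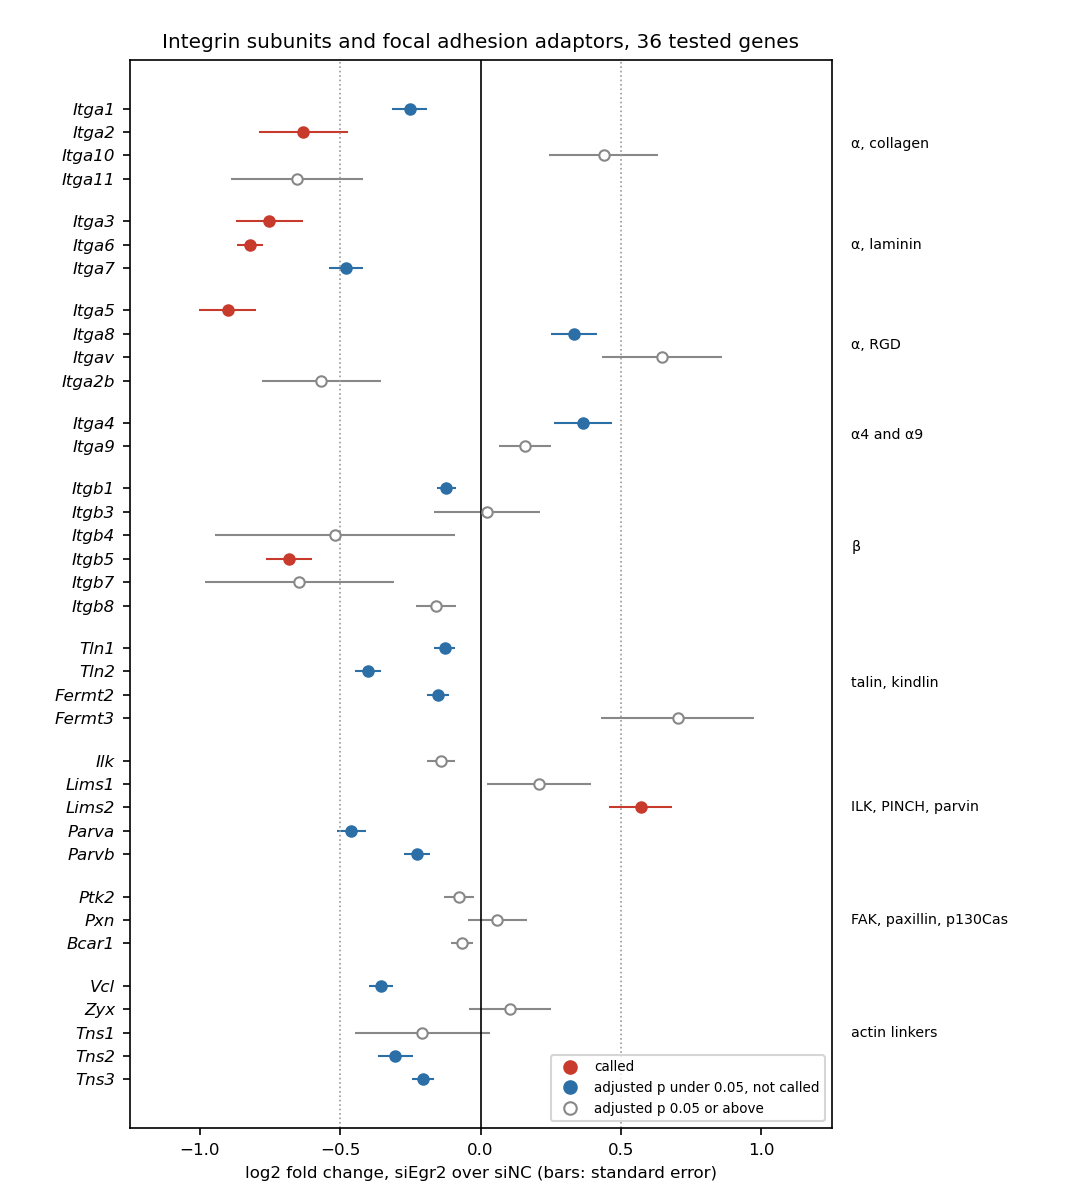
Log2 fold change of siEgr2 over siNC (x axis) for the 36 tested genes, grouped by role (y axis), with bars for the standard error and dotted lines at 0.5 on either side of 0. Filled red points were called, filled blue points passed the adjusted p with a smaller change, and open points did not pass. With TMM and the 0.5 threshold, the 5 called falls are all receptor subunits, and Lims2 is the 1 called rise.

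The scaling mattered for the count. With library size alone, without TMM, all genes tested had a median log2 fold change of -0.18, so that whole scale is shifted down. On it, 11 members were called lower and none higher, and 88.0% of all calls were in the lower direction, against 65.9% with TMM. The tested members had a median of -0.36 with library size alone, against -0.18 with TMM.

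All 3 laminin-binding α subunits passed the test as lower, where 11.3% of all genes tested did, and Itga6 and Itga3 were called. Itga6 (chromosome 2, 71745616 to 71858416), the laminin-binding α6 subunit, was measured at 101 to 117 CPM in siNC with a median of 106, and at 58.6 to 63.4 CPM in siEgr2 with a median of 59.7. The groups were far apart and each was narrow, with an SD of 6.05 CPM in siNC and 1.79 in siEgr2. A log2 fold change of -0.82 (SE 0.05, adjusted p = 5.99e-09) left 56.7% of the siNC mean.

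Itga3 (chromosome 11, 95044474 to 95076801), whose product also pairs with β1 to bind laminins, held 19.3 to 27.5 CPM in siNC with a median of 22.5, and 10.96 to 15.8 CPM in siEgr2 with a median of 14.0. No siEgr2 library reached the lowest siNC library. This gave a log2 fold change of -0.75 (SE 0.12, adjusted p = 0.000256). Itga7 (chromosome 10, 128933818 to 128958282), the third laminin-binding α subunit and best known from muscle, stood at 92.0 to 112 CPM in siNC with a median of 101, and at 64.8 to 79.2 CPM in siEgr2 with a median of 71.7. The groups did not overlap here either. Its log2 fold change of -0.48 (SE 0.06, adjusted p = 2.9e-05) passed the test and missed the fold change threshold. The 3 laminin-binding α subunits summed to 212 to 246 CPM in siNC and 136 to 155 CPM in siEgr2. Astrocyte marker sums separated the groups in the same direction, and whether they account for any of these falls was not tested.

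Among the α subunits that bind the RGD motif of fibronectin, vitronectin and related ligands, Itga5 had the lowest log2 fold change of all members. Itga5 (chromosome 15, 103344286 to 103366763) encodes the α5 chain of the main fibronectin receptor, and it held 35.4 to 50.4 CPM in siNC with a median of 37.1 and 18.6 to 24.9 CPM in siEgr2 with a median of 21.4. Replicates 3 and 6 of siNC were the highest, at 46.8 and 50.4 CPM, and the other 4 siNC libraries lay between 35.4 and 37.8. All 6 siEgr2 libraries were below these. Itga5 thus had a log2 fold change of -0.90 (SE 0.10, adjusted p = 9.97e-06).

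Itga8, another RGD-binding partner of β1, went the other way. It was measured at 28.1 to 35.3 CPM in siNC with a median of 32.3 and at 35.4 to 48.1 CPM in siEgr2 with a median of 39.04, so the highest siNC library and the lowest siEgr2 library were close but did not overlap. Its log2 fold change of 0.33 (SE 0.08, adjusted p = 0.00738) was below the size needed for a call, and with library size alone it was 0.15 and did not pass.

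Itgav, the αv chain that pairs with β1, β3, β5, β6 or β8, was uneven within the siNC group. In siNC, replicates 1, 2, 3 and 6 held 119.998, 131, 139.8 and 133 CPM, while replicates 4 and 5 held 249 and 267 CPM. All 6 siEgr2 libraries lay between 250.4 and 293 CPM, with a median of 274. The siNC libraries thus sat at 2 separate levels, with a gap of 1.78-fold between them, and the upper level bordered on the siEgr2 values and overlapped them. Raw counts were 4129 to 8494 in siNC and 1968 to 4550 in siEgr2. The log2 fold change of 0.65 (SE 0.21) did not pass the test (adjusted p = 0.0597). It passed with DESeq2 (adjusted p = 0.0224), with limma-voom (0.0372), without siNC replicate 4 (0.0233) and without siNC replicate 5 (0.0114), within a range of 0.0114 to 0.149 over 24 alternatives. Itga2b, the platelet αIIb chain, was low at 4.12 to 5.07 CPM in siNC and 2.10 to 5.76 CPM in siEgr2, with a log2 fold change of -0.57 that did not pass (adjusted p = 0.0728). Replicate 5 of siEgr2, the library of the lowest depth, held the 5.76 CPM, and without it the gene was called (-0.81), as it was with DESeq2, limma-voom or library size alone. When thinned to the smallest total, the log2 fold change of Itga2b was only -0.27.

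Of the collagen-binding α subunits, Itga2 was called. Itga2 (chromosome 13, 114833081 to 114932100), the α2 chain, was scarce, with 131 to 236 raw counts in siNC and 24 to 61 in siEgr2, or 3.81 to 5.66 CPM with a median of 5.12 and 2.39 to 3.77 CPM with a median of 3.24. The lowest siNC and the highest siEgr2 library nearly met. Itga2 had a log2 fold change of -0.63 (SE 0.16, adjusted p = 0.00933), which was -1.10 when thinned to the smallest total. Itga1, its neighbour on the same chromosome and a receptor for collagen IV, fell less, from 44.3 to 54.1 CPM in siNC (median 46.7) to 37.9 to 43.5 CPM in siEgr2 (median 40.4), a log2 fold change of -0.25 (SE 0.06, adjusted p = 0.00895) with no overlap. Itga10 (log2 fold change 0.44, adjusted p = 0.129) and Itga11 (-0.65, adjusted p = 0.0617), the other 2 collagen receptors, stayed under 5 CPM in every library and did not pass. Itga11 passed and was called with DESeq2, with library size alone, and without siNC replicate 1 or siNC replicate 4.

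The α4 and α9 subunits, which bind VCAM-1, tenascin and osteopontin among other ligands, did not fall. Itga4 held 26.2 to 33.5 CPM in siNC with a median of 30.9 and 32.2 to 51.0 CPM in siEgr2 with a median of 38.0. Its groups overlapped through the lowest siEgr2 libraries, and the log2 fold change was 0.37 (SE 0.10, adjusted p = 0.0184), though with library size alone it was 0.18 and did not pass. Itga9 was at 25.9 to 33.4 and 27.7 to 40.1 CPM, with a log2 fold change of 0.16 that did not pass and that became -0.02 with library size alone.

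The leukocyte α subunits were near 0. Itgad and Itgam had no count in any library, which allows up to 0.0718 to 0.0982 CPM per siNC library and 0.185 to 0.384 CPM per siEgr2 library at 3 counts, for counting error only. Itgae had 0 to 4 counts, Itgax 0 to 8 and Itgal 0 to 20 per library, and none of these 5 could be tested. Of the exons of Itgam, 68.7% of the bases are shared with another annotated gene of the same strand, Gm49368, which itself had at most 9 counts.

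Among the β subunits, Itgb5 was called. Itgb5 (chromosome 16, 33829665 to 33949338) encodes the β5 chain of the vitronectin receptor αvβ5, and it held 59.7 to 79.9 CPM in siNC with a median of 70.8 and 36.9 to 49.9 CPM in siEgr2 with a median of 42.0. No siEgr2 library reached the lowest of siNC. For Itgb5 the log2 fold change was -0.68 (SE 0.08, adjusted p = 1.87e-05).

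Itgb1, the common partner of most α subunits, changed little. It stood at 689.9 to 763 CPM in siNC with a median of 730.4 and at 639 to 702 CPM in siEgr2 with a median of 663. The groups overlapped, and the log2 fold change of -0.12 (SE 0.03, 95% interval -0.19 to -0.06) passed the adjusted p (0.0149). Its fall was thus smaller than those of its laminin and fibronectin partners, whose intervals ended at -0.73 for Itga6 and -0.70 for Itga5, though the differences between genes were not tested.

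Itgb8, the second β subunit by level and a partner of αv in the activation of TGF-β, lay at 276 to 358 CPM in siNC and 262 to 303 CPM in siEgr2, with a log2 fold change of -0.16 that did not pass (adjusted p = 0.14). In siNC, replicates 1, 2 and 5 were at 342 to 358 CPM and the other 3 at 276 to 288. Itgb3, the β chain of the platelet and of a vitronectin receptor, was at 3.70 to 9.57 CPM over all libraries with a log2 fold change of 0.02. Itgb4 (-0.52), the β chain of the hemidesmosome, and Itgb7 (-0.65), found mainly on lymphocytes, stayed under 3 CPM in every library and did not pass. With a library left out, Itgb4 was -0.70 to -0.27 and Itgb7 was -1.12 to -0.48. Itgb7 was called lower without siEgr2 replicate 3. Itgb2, the leukocyte β chain, held 10 to 43 raw counts in siNC, 0 to 14 in siEgr2, and was not tested, and Itgb6, an epithelial chain, had no count in any library.

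Per length, the order of the subunits in siNC was clear at the top of the β chains. Itgb1 stood at 179 CPM per kb of exon (169 to 187 over the siNC libraries), Itgb8 at 28.6 (25.0 to 32.4) and Itgb5 at 19.5 (16.8 to 22.5). These ranges did not overlap, and Itgb1 made up 77.96% ± 1.202 (SD, n = 6) of the β level per length in siNC and 80.5% ± 0.689 in siEgr2. Of the α chains, Itgav stood at 16.1 CPM per kb, Itga7 at 12.5, Itga6 at 11.8 and Itga5 at 8.21. The siNC ranges of Itgav (11.2 to 24.9), Itga7 (11.4 to 13.9) and Itga6 (11.1 to 13.0) overlapped, so their order is not set. In siEgr2, Itgav made up 38.98% ± 1.63 of the α level per length, against 23.2% ± 7.11 in siNC, and Itga6 10.4% ± 0.4997 against 17.3% ± 1.31.

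**Figure D2:**
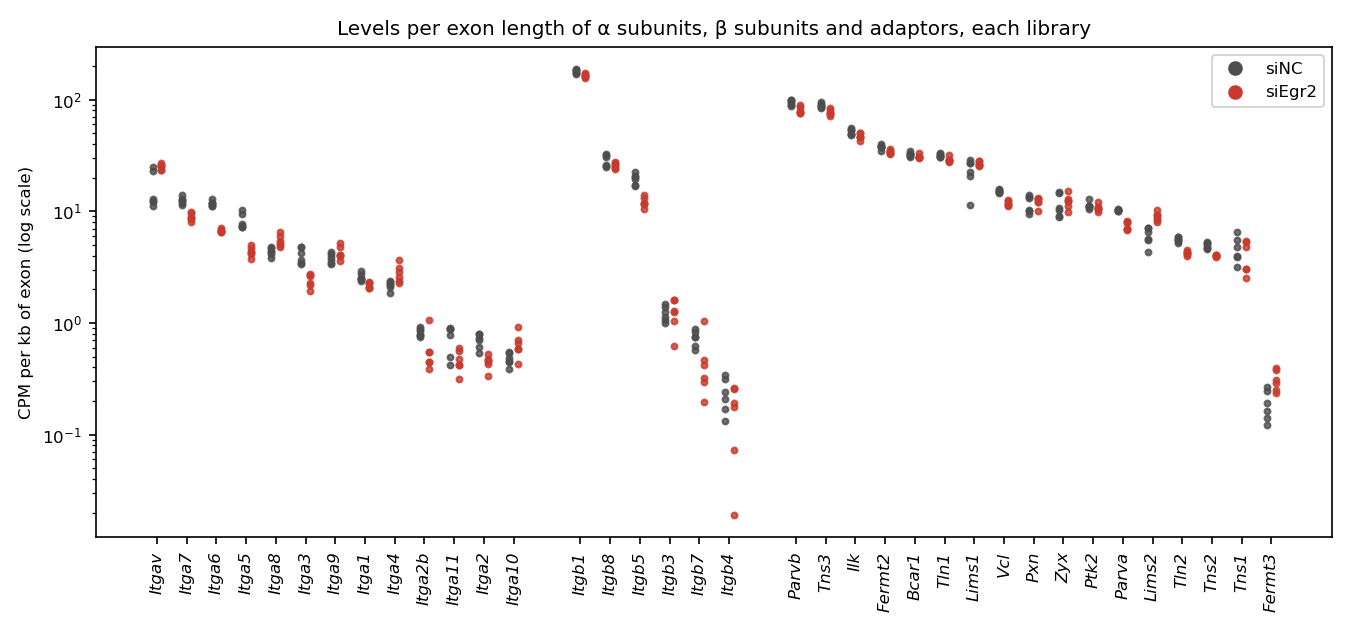
CPM per kb of exon (y axis, log scale) in each of 6 siNC and 6 siEgr2 libraries for the tested α subunits, β subunits and adaptors (x axis, ordered by the siNC mean in each class). Itgb1 lies above all other genes shown, and the siNC points of Itgav fall into 2 levels.

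Talins and kindlins bind the β tail, and none of them was called. Tln1, the main talin, was at 301 to 328 CPM in siNC (median 306) and 269 to 311 CPM in siEgr2 (median 282), overlapping in siEgr2 replicate 6, with a log2 fold change of -0.13 (SE 0.04, adjusted p = 0.0263, which was lost in 5 of 24 alternatives). Tln2, the second talin, fell further, from 96.1 to 108 CPM (median 103) to 73.1 to 82.9 CPM (median 77.6), with no overlap and a log2 fold change of -0.40 (SE 0.05, adjusted p = 1.08e-05). Fermt2, or kindlin-2, the widely expressed kindlin, was at 181 to 209.7 CPM (median 196) and 168 to 186 CPM (median 177), overlapping through siNC replicate 4, with a log2 fold change of -0.15 (SE 0.04, adjusted p = 0.0139). The blood cell kindlin Fermt3 was at 0.709 to 1.54 CPM in siNC and 1.36 to 2.28 CPM in siEgr2 and did not pass (log2 fold change 0.70, adjusted p = 0.0834), though with DESeq2 it was called higher. The epithelial kindlin Fermt1 had no count in any library.

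ILK, the PINCH proteins (Lims1 and Lims2) and the parvins form a complex at the β tail that links it to actin. Parva, α-parvin, was at 101 to 107 CPM in siNC (median 104) and 68.9 to 82.3 CPM in siEgr2 (median 75.6). These groups stood well apart, with an SD of 2.09 CPM in siNC. Parva had a log2 fold change of -0.46 (SE 0.05, adjusted p = 9.97e-06). Parvb, β-parvin, the highest adaptor per length together with Tns3, was at 389 to 439 CPM (median 421) and 336 to 392 CPM (median 346), overlapping only in siEgr2 replicate 3, with a log2 fold change of -0.23 (SE 0.05, adjusted p = 0.00209).

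Ilk itself lay at 132 to 153 CPM in siNC and 117 to 137 in siEgr2, with a log2 fold change of -0.14 that did not pass (adjusted p = 0.0585), though it passed in 5 of 24 alternatives. Of its exon bases, 76.7% also belong to Taf10 on the opposite strand (log2 fold change -0.11), so its counts are uncertain where strand was not used. Lims1, or PINCH-1, held 56.1 CPM in siNC replicate 3 and 102 to 142 CPM in the other 5 siNC libraries, against 123 to 137 CPM in siEgr2, with a log2 fold change of 0.21 that did not pass and was 0.07 without that replicate.

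Lims2, or PINCH-2 (chromosome 18, 31922290 to 31958619), was the called rise. It held 13.3 to 21.7 CPM in siNC with a median of 18.5 and 24.5 to 31.5 CPM in siEgr2 with a median of 27.4. No siNC library reached the lowest of siEgr2. The log2 fold change was 0.57 (SE 0.11, adjusted p = 0.00161). The fold change stayed past the adjusted p and fell below the size for a call without siNC replicate 6, the lowest for this gene (0.49, adjusted p = 0.00183), with library size alone (0.39, adjusted p = 0.0141) and without the smallest and the largest library (0.48, adjusted p = 0.00434), within adjusted p of 3.4e-05 to 0.0203 over 24 alternatives. The exons of Lims2 share 188 bases, 6.14% of their length, with the precursor gene Gpr17 on the opposite strand. Gpr17 had up to 32001 counts per library, against at most 743 for Lims2, so reads of the shared bases could be counted for either where strand was not used. Gpr17 itself had a log2 fold change of 0.03 (adjusted p = 0.7).

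**Figure D3:**
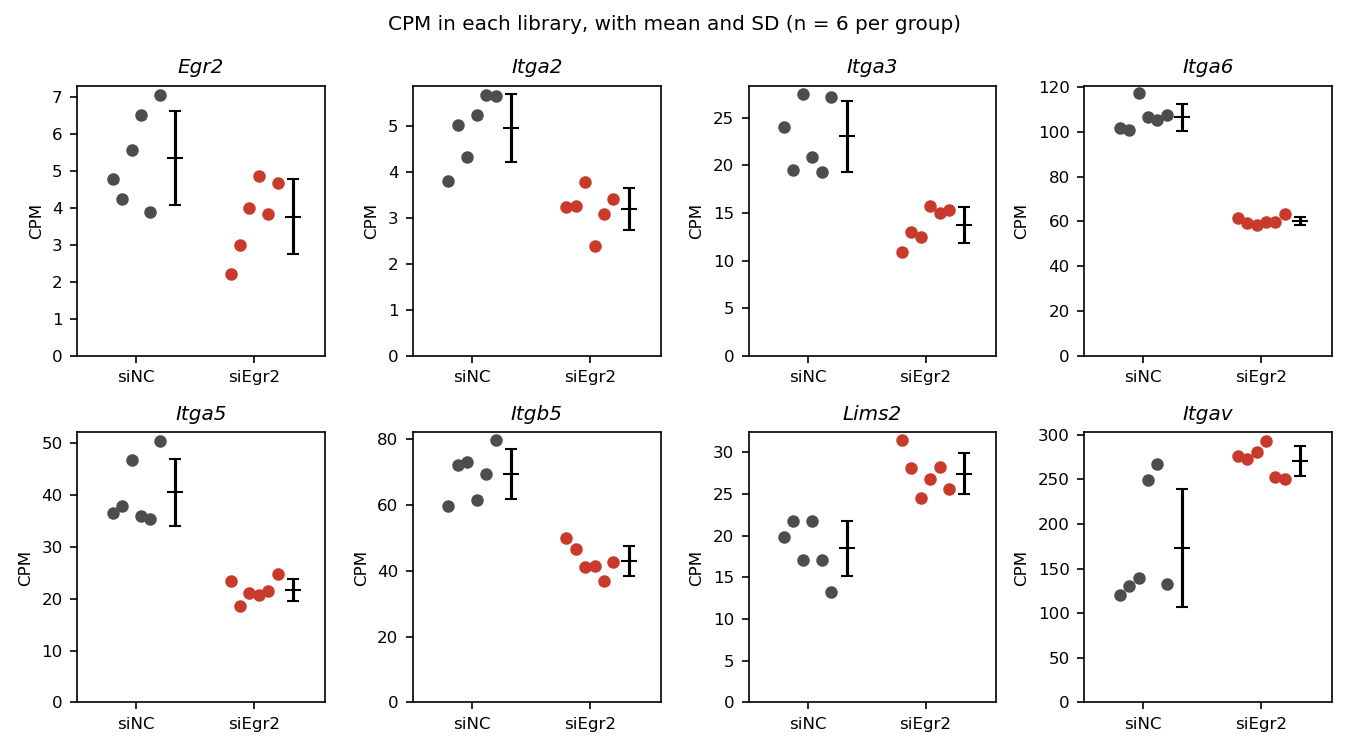
CPM (y axis) in each siNC and siEgr2 library (points, n = 6 per group) of Egr2, the 6 called genes and Itgav, with the mean and SD beside the points and each axis starting at 0. The groups do not overlap in the 6 called genes, and they overlap in Egr2 and in Itgav, where 2 siNC libraries stand near the siEgr2 level.

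No signalling adaptor passed the test with TMM, while Ptk2 (-0.26) and Bcar1 (-0.25) passed as lower with library size alone. Ptk2, the focal adhesion kinase FAK, was at 123 to 151 CPM in siNC and 115 to 142 CPM in siEgr2, with a log2 fold change of -0.08 (95% interval -0.18 to 0.03, adjusted p = 0.364). Bcar1, the scaffold p130Cas that FAK and Src phosphorylate, was at 140.1 to 157 and 136 to 151 CPM (log2 fold change -0.07, interval -0.14 to 0.01). Pxn, paxillin, had a log2 fold change of 0.06 (interval -0.15 to 0.26). Its siNC libraries lay at 76.8 to 84.5 CPM in replicates 1, 2 and 5 and at 108 to 114 CPM in replicates 3, 4 and 6, while 5 of the 6 siEgr2 libraries lay between 98.4 and 107 CPM. The intervals of Ptk2 and Bcar1 leave out changes of 0.5 in either direction.

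Of the proteins that tie adhesions to actin, 3 of 5 passed the test, all of them lower (11.3% of all genes tested passed as lower). Vcl, vinculin (chromosome 14, 20929398 to 21033676), which binds talin and actin under tension, was at 119 to 131 CPM in siNC (median 123) and 91.8 to 104 CPM in siEgr2 (median 96.2). The groups did not overlap, and the log2 fold change was -0.35 (SE 0.04, adjusted p = 2.15e-05). Of its exon bases, 25.5% also belong to Ap3m1 on the opposite strand, whose log2 fold change was -0.09 (adjusted p = 0.241). Tns3, a tensin linking β tails to actin, was the most abundant adaptor by CPM, at 949 to 1064 CPM (median 996) and 802 to 942 CPM (median 849.7), with a log2 fold change of -0.21 (SE 0.04, adjusted p = 0.00163). Its highest siEgr2 library, replicate 3, came close to the lowest siNC library. Tns2 was at 25.2 to 29.0 CPM (median 26.8) and 21.4 to 22.3 CPM (median 21.8), with no overlap and a log2 fold change of -0.30 (SE 0.06, adjusted p = 0.00216).

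Tns1 and Zyx varied within the groups. Tns1 ranged from 50.8 to 105 CPM in siNC, and in siEgr2 replicates 2, 3 and 5 held 40.4 to 48.4 CPM while replicates 1, 4 and 6 held 76.0 to 87.1 CPM. The log2 fold change was -0.21 (SE 0.24), did not pass and was -0.31 to -0.08 with a library left out. Zyx, zyxin, a sensor of tension on actin fibres, held 78.3 and 80.8 CPM in siNC replicates 4 and 3 and 48.3 to 57.2 CPM in the other 4, against 53.5 to 81.2 CPM in siEgr2, with a log2 fold change of 0.10 (SE 0.15) that did not pass. Of 23 members with a mean log2 CPM over 5, 5 (Itgav, Lims1, Pxn, Zyx and Tns1) had a coefficient of variation in siNC above 15.5%, the value that 10% of all 6500 such genes exceed, and the median of those genes was 6.07%. In siNC, the high replicates of Pxn (3, 4 and 6) were the low ones of Itgb8, and the cause was not tested.

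Of the other genes of the pathway, 159 of 167 were tested and 34 were called, all of them lower. They are integrin ligands in 21 of 53 tested, actin-side linkers in 9 of 38, regulators of integrins in 3 of 29 and adhesion signalling genes in 1 of 40, where 5.08% of all genes tested were called lower. Cav1 is in 2 of these lists. The medians of the log2 fold changes were -0.42, -0.28, -0.18 and -0.04 in this order, beside 0.00 over all genes tested.

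The ligand list held the largest falls. Vcam1, a cell surface ligand of α4 and α9 integrins, went from 73.6 to 95.5 CPM (median 88.5) to 31.0 to 37.4 CPM (median 35.1), a log2 fold change of -1.32 (SE 0.07, adjusted p = 2.46e-09). Tnc, tenascin-C, a ligand of α9 and αv integrins, went from 132 to 237 CPM (median 173) to 56.1 to 88.5 CPM (median 76.4), a log2 fold change of -1.31 (SE 0.15, adjusted p = 9.67e-05). Neither gene's groups overlapped. Ccn3, a matricellular ligand, was scarce at 4.62 to 6.82 and 2.03 to 4.68 CPM and overlapped, with a log2 fold change of -1.07 (SE 0.19, adjusted p = 0.000857). Lama5, the laminin α5 chain bound by α3 and α6 integrins, went from 87.7 to 129 CPM (median 111) to 49.2 to 56.3 CPM (median 54.2), a log2 fold change of -1.06 (SE 0.08, adjusted p = 1.99e-07). The most abundant ligand by CPM, the oligodendrocyte tenascin Tnr, did not pass (log2 fold change -0.06), and Icam2 had no count. Several of these ligands are made by astrocytes or vessel cells. The astrocyte sum and the pericyte and smooth muscle sum were also lower in siEgr2, and the part of these cells was not tested.

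On the actin side, the largest falls were in Ezr, ezrin, a linker of membrane proteins to actin (169 to 189.7 CPM in siNC and 101 to 118 CPM in siEgr2, log2 fold change -0.73), and in the LIM protein gene Pdlim1 (7.18 to 11.1 and 4.44 to 7.31 CPM, -0.65). Palld, palladin, which bundles actin with α-actinin (124 to 138 and 79.4 to 96.7 CPM, -0.58), and Tgfb1i1, the paxillin relative Hic-5 (10.2 to 12.1 and 4.94 to 8.77 CPM, -0.56), followed. The groups overlapped only in Pdlim1 among these 4. Of the regulators, Lgals1, the lectin galectin-1, held 88.7 to 137 CPM in siNC and 53.3 to 70.8 CPM in siEgr2 (log2 fold change -0.91), and Cd151, the tetraspanin that binds laminin receptors, held 58.5 to 102 and 50.6 to 58.6 CPM (-0.65), meeting at the edge of the groups. Mdga1, a neural cell surface gene, held 15.3 to 19.9 and 9.05 to 16.6 CPM (-0.53), with overlap. The called signalling gene was the small GTPase Rras, an activator of integrins (21.3 to 30.3 and 17.0 to 18.5 CPM, -0.55), without overlap.

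Promoter windows of 250 bases before to 50 bases after the start were listed for 31 of the 44 members in RefSeq (GRCm38.p6), 37 windows in all, and were searched on both strands for short motifs. Windows were not listed for Itga6, Itga7, Itgad, Itgae, Itgal, Itgb2, Itgb3, Itgb4, Lims2, Parva, Ptk2, Pxn and Tln2. The EGR letters GCGTGGGCG were in 0.612% of all 32851 windows and in none of the members', and GCGGGGGCG in 2.91% of all and in that of Zyx. The AP-1 letters TGANTCA were in 7.81% of all windows and in those of Itga3, Itga9, Itgax and Zyx. The CArG box, the motif of serum response factor, was in 1.63% of all windows and in those of Fermt2, Itgb6 and Vcl. The GC box GGGCGG, which can overlap the second EGR motif, was in 35.7% of all windows and in 20 of the 37. A match describes letters in a window and not a bound site.

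The windows of the called genes that were listed are shown to let their composition be read, as the 120 bases before the start on the strand of the gene, with GC boxes of either strand in capitals. Their G and C content ranged from 50.8% in the second window of Itga3 to 75.0% in its first, with Itga5 at 55.8%, Itga2 at 65.8% and Itgb5 at 72.5%. The Itga2 stretch (chr13:114932101-114932220, minus strand) holds no GC box. Of the Itga3 stretches, the first (chr11:95076715-95076834, minus strand) holds 1 and the second (chr11:95069199-95069318, minus strand) none. That of Itga5 (chr15:103366792-103366911, minus strand) holds 1 and that of Itgb5 (chr16:33829545-33829664, plus strand) holds 2.
Itga2: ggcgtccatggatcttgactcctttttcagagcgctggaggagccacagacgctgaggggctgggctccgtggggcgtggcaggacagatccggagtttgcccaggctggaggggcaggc
Itga3, first window: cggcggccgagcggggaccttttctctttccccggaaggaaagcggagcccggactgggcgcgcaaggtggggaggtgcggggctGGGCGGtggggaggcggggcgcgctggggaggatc
Itga3, second window: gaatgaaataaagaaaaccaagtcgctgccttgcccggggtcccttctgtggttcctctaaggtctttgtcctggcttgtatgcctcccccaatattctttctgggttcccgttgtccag
Itga5: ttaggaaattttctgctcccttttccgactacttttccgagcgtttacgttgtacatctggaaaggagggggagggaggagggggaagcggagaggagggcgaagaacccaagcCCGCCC
Itgb5: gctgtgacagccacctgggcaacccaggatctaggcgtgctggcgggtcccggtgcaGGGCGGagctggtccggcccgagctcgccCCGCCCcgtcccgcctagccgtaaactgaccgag

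Short stretches around the motif are shown for the members with a CArG box that passed the adjusted p and for Zyx, which did not, with the motif in capitals. They lie at chr14:20929156-20929195 (Vcl, plus strand), chr14:45530245-45530284 (Fermt2, minus strand) and chr6:42349799-42349827 (Zyx, plus strand). Vcl is known as a target gene of serum response factor. Zyx carries the EGR letters within the 29 bases before the RefSeq start, which lies downstream of the first base of the gene in GENCODE (42349630).
Vcl: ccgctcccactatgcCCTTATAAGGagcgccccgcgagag
Fermt2: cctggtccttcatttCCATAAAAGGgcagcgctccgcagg
Zyx: ggtggtctgtgcccgGCGGGGGCGgtggt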

How the data were processed

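RNA-seq was analysed in 12 libraries of primary mouse oligodendrocytes, grouped and numbered by their labels. The authors sequenced 50-base Illumina reads and deposited raw counts per gene symbol without normalization. The submitters' processing notes name mm10, and the aligner, the counting program and the use of strand are not given in the sources used here, so genes whose exons overlap are uncertain. A row without a gene name (1 row, no counts) was left out. No pair of libraries within a group agreed within sampling noise.

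Genes were kept by filterByExpr (16600 of 56860), scaled by TMM and compared in R 4.3.3 with edgeR 4.0.16 (quasi-likelihood test, robust, no covariate), with Benjamini-Hochberg adjustment over all genes tested. A gene was called, by the thresholds of the study, when its adjusted p was under 0.05 and its log2 fold change beyond 0.5 in either direction. Levels are counts per 1000000 on the TMM scale (CPM), divided by summed exon length where genes are compared. Standard errors were taken from the fold change and its F statistic. Totals and ribosomal RNA shares were compared by two-sided exact permutation tests. The procedure was tested on simulated counts. A first simulation, with the same dispersion for every gene, gave more false calls than allowed and was replaced by a simulation with each gene's own dispersion.

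The members and all gene lists were chosen with earlier results of these data known. Named are all members. From each list of other adhesion genes, up to 4 called genes with the largest fold change in each direction and a mean log2 CPM of at least 2 are named. From each cell type list used here, the most abundant gene, up to 3 called genes and those at 0 are named, as are Egr2 and Rn18s-rs5. Tnr, Icam2, Cav1, Vwf, Pecam1, Tek, Tie1, Esam and the genes that share exon bases with members were named after their values were seen. Sums of myelinating oligodendrocyte and microglia markers are not used here. Gene positions and exon lengths came from GENCODE M21 (GRCm38) and promoter sequences from RefSeq (GRCm38.p6). Alternatives were other scaling (RLE, upper quartile, library size), DESeq2 1.42.0, limma-voom (limma 3.58.1), other filters, thinning, removal of structural RNA genes or of the trend with length, a replicate block, other thresholds and each library left out in turn. Leaving out the smallest and the largest library together was added after seeing the data.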

Additional observations from a re-analysis of the deposited data

Results flagged for a closer look

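A library stood apart from the other 5 of its group in 6 of 78 groups of values examined (36 tested members, Egr2, total counts and Rn18s-rs5 share, in each treatment group), and chance alone would set 1 in 20 groups, or 3.9, apart in this way. Total counts were 39383014 in siNC replicate 6 against 28682946 to 32460116 in the other 5. Itga2b held 5.76 CPM in siEgr2 replicate 5 against 2.10 to 3.01, and Itgb7 held 2.90 CPM in siEgr2 replicate 3 against 0.538 to 1.30. Without these libraries both genes were called lower, with log2 fold changes of -0.81 and -1.12. Ptk2 held 151 CPM in siNC replicate 4 against 123 to 133. In siEgr2 replicate 4, Pxn was low at 83.1 CPM against 98.4 to 107, and Bcar1 was high at 151 CPM against 136 to 140.3. Causes were not tested.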

How the results depend on the processing

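The 5 called falls (Itga2, Itga3, Itga5, Itga6 and Itgb5) were each called in all 24 refits. Their log2 fold changes ranged from -1.10 (when thinned to the smallest total) to -0.56 for Itga2, -0.94 to -0.66 for Itga3, -1.08 to -0.83 for Itga5, -1.003 to -0.79 for Itga6 and -0.87 to -0.60 for Itgb5. The count of members called lower was 5 to 7 in them apart from 11 with library size alone, and was 5 to 6 with a library left out. It was 16 with no fold change required and 0 with a log2 fold change over 1. Itga7, just under the fold change threshold, was called in 5 refits. The count of members called higher was 1, and it was 0 with library size alone, 3 with DESeq2, 2 with limma-voom, 0 without the smallest and the largest library (chosen after seeing the data), 3 with no fold change required, 0 with a log2 fold change over 1 and 0 to 2 with a library left out, where it was 0 without siNC replicate 6 and 2 without siNC replicate 4 or 5. Other pathway genes called numbered 34, against 62 with library size alone, 75 with no fold change required, 4 with a log2 fold change over 1, and 26 to 37 in the other refits. Egr2 passed with library size alone (log2 fold change -0.70, adjusted p = 0.0144, within 0.0144 to 0.247 over the refits), and was -0.60 to -0.39 with a library left out. Causes of these differences were not tested.

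Members that passed without being called did not all keep passing. Tln1 did not pass in 5 refits, with thinning (adjusted p = 0.163), without siNC replicate 2 or 6, without siEgr2 replicate 5 and without the smallest and the largest library. Itgb1 did not pass with the trend with length removed or without the smallest and the largest library (up to 0.0634), Itga4 and Itga8 with library size alone (0.163 and 0.172), and Itga1, Fermt2 and Tns2 with thinning (0.116, 0.144 and 0.12). The cause was not tested.

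Members that had not passed did so in some refits. Ilk passed in 5, with library size alone (-0.32), with no filter, and without siNC replicate 1 or siEgr2 replicate 1 or 6. Itgb8 (-0.34), Ptk2 (-0.26) and Bcar1 (-0.25) passed with library size alone, the setting that lowers the median of all genes. That setting also gave -0.30 for Itgb1, -0.31 for Tln1, -0.33 for Fermt2, -0.41 for Parvb, -0.39 for Tns3 and -0.54 for Vcl. With a library left out, Pxn was 0.00 to 0.11, Zyx 0.04 to 0.20, Ptk2 -0.12 to -0.04 and Itga9 0.10 to 0.20.

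Members that changed sign had not passed with TMM and edgeR. With library size alone these were Itga9 (-0.0211), Itgb3 (-0.15), Pxn (-0.12) and Zyx (-0.0788), and with thinning Pxn (-0.0145). Itgb3 was also -0.0192 with no filter, -0.0205 with the replicate block, -0.0388 without the smallest and the largest library and -0.0766 to 0.153 with a library left out, where it was negative without siNC replicates 3 or 6 or siEgr2 replicates 2 or 3. Replicate numbers did not pair the samples (correlations of same-numbered libraries -0.04 to 0.04, and not every library matched its own number best). With the replicate block, members called numbered 5 lower and 1 higher, other pathway genes 33, and the log2 fold change of Egr2 was -0.52. Among genes under about 6 CPM, Itga2 rested on 24 to 61 counts in siEgr2 libraries and Itgb4 on 2 to 22, which limits their precision.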
